A study of Mus musculus with 6 samples.

Results

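Protocadherins are a large family of cadherin-type cell adhesion proteins, and 71 of the 32531 named genes in the count files carried a symbol beginning with Pcdh. They were chosen by that symbol, with earlier results of these data known, as were the gene lists used below. Of these, 59 were clustered protocadherins, with 16 names in the alpha, 21 in the beta and 22 in the gamma cluster, and 12 were single genes that stand alone in the genome. The libraries came from translating ribosome affinity purification (TRAP) of thalamus from untreated adult mice. The line was Cbln1-EGFP/Rpl10a (NIDA030), in which cells marked by Cbln1 carry a ribosomal protein tagged with green fluorescent protein. There were 3 immunopurified (IP) libraries, made from RNA pulled down with the tagged ribosomes, and 3 Input libraries. Both groups share line, tissue, age and lack of treatment, and the labels call the molecule of both ribosome-bound RNA in one field and total RNA in another. The labels do not say whether replicates were separate animals or pools, so p-values measure the spread between these libraries, which may be technical in part. Xist, the RNA of the inactive X, had 0 counts in both libraries of replicate 3 and more in all others. The replicates were thus not all made from the same material. The comparison of IP with Input asks which protocadherin RNAs the tagged ribosomes carried more or less of.

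In the alpha and gamma clusters, each gene name stands for a variable exon with its own promoter, spliced to constant exons that all members of the cluster share. Beta genes have no constant exons. A neuron uses a small set of the variable exons, chosen largely at random with the help of the architectural protein CTCF and cohesin, and the proteins recognise matching sets on other membranes, which lets the branches of a neuron avoid each other. The last genes of the alpha and gamma clusters, called C types, are used more regularly. Single protocadherins of the delta-1 and delta-2 subgroups have long cytoplasmic tails and mark particular nuclei, layers and tracts, where they take part in axon sorting and synapse formation.

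Counts assigned to genes came to 45256700 to 57385828 per IP library and 23929070 to 47741219 per Input library. Levels are in CPM, counts scaled to a common library size after TMM normalization, which evens out differences in RNA composition. Cbln1, the gene that names the line, was far higher in IP: it had 1360.4, 1428 and 1496 CPM in IP and 68.9, 83.2 and 87.2 CPM in Input, with a log2 difference of 4.16 (SE 0.11) and an adjusted p of 9.66e-08. Markers of astrocytes, oligodendrocytes and their precursors were lower in IP, with 8 of 8 called in each list, against 24.3% of all 16898 genes tested. Summed CPM ran from 262 to 299 in IP and 835 to 889 in Input for astrocytes, 307 to 385 and 3539 to 4092 for oligodendrocytes, and 24.5 to 36.7 and 259.6 to 265 for oligodendrocyte precursors. Markers of GABAergic neurons summed to 84.4 to 96.8 CPM in IP and 658 to 888 in Input, and those of glutamatergic thalamic neurons to 4508 to 5092 and 3125 to 3629.7. Of the 8 in the glutamatergic list 5 were called higher and 1, Rora, lower (-0.40 on the log2 scale), against 23.3% and 24.3% of all genes. In such bulk samples, fewer cells of a type and less RNA per cell cannot be told apart, and the part of these cell types in the results below was not tested.

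Protocadherins as a whole took overlapping small shares of the assigned counts in the IP and Input libraries. They made up 0.0892, 0.0889 and 0.0834% in IP replicates 1 to 3 and 0.0887, 0.0854 and 0.0888% in Input replicates 1 to 3. Clustered genes contributed 21.3, 26.1 and 20.5% of these protocadherin counts in IP and 22.1, 24.6 and 24.02% in Input, so the groups overlapped. The log2 ratio of summed clustered to summed single counts was -1.78 ± 0.244 in IP and -1.70 ± 0.104 in Input (n = 3 libraries per group, ± SD), a difference of -0.08 that lay within the spread of the libraries. Because both sums come from the same library, this ratio does not depend on how libraries were scaled to each other. It does depend on which reads were given to genes. Reads overlapping several features made up 1.48% in IP and 5.89% in Input, and reads aligned to several places 45.9% and 33.3%. Such losses may weigh more on clustered than on single genes, and their part in the ratio and the shares was not tested.

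Single protocadherins were called different in both directions, and few clustered ones were called. Of the 12 single genes 11 passed the filter on low counts, and 5 of these were called higher and 2 lower in IP. Of the 59 clustered names 53 passed, and 3 were called higher and 0 lower. Among all 16898 genes tested, 23.3% were called higher and 24.3% lower by edgeR's quasi-likelihood test (Benjamini-Hochberg adjusted p under 0.05). DESeq2 and limma-voom each called 3 clustered genes lower, the same 3 that had an unadjusted p under 0.05 in edgeR. Single genes had a median log2 fold change of 0.47, clustered genes one of 0.05 and all genes one of -0.07. The median of the single genes is the value of 1 gene of wide spread, Pcdh18, and was 0.08 without IP replicate 2 and 0.11 without replicate number 2.

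Summed over their members, single genes came to 806, 688 and 706 CPM in IP replicates 1 to 3 and 647, 592 and 612 CPM in Input. All IP libraries thus lay above all Input libraries, by 1.19-fold in the means. It did not hold with library totals in place of TMM: the single genes then came to 702, 657 and 663 CPM in IP and 691, 644 and 675 CPM in Input, which overlapped, with a ratio of means of 1.01. Clustered genes summed to 218, 243 and 182 CPM in IP and 184, 193 and 194 CPM in Input, which overlapped. Within the clusters the means were 30.4 ± 5.12 CPM in IP and 24.1 ± 0.863 CPM in Input for alpha, 74.9 ± 9.70 and 66.2 ± 3.80 for beta, and 109 ± 24.3 and 99.8 ± 8.13 for gamma (n = 3 libraries per group, ± SD). The spread between replicates was wider in IP than in Input in each of the 3 clusters.

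**Figure D1:**
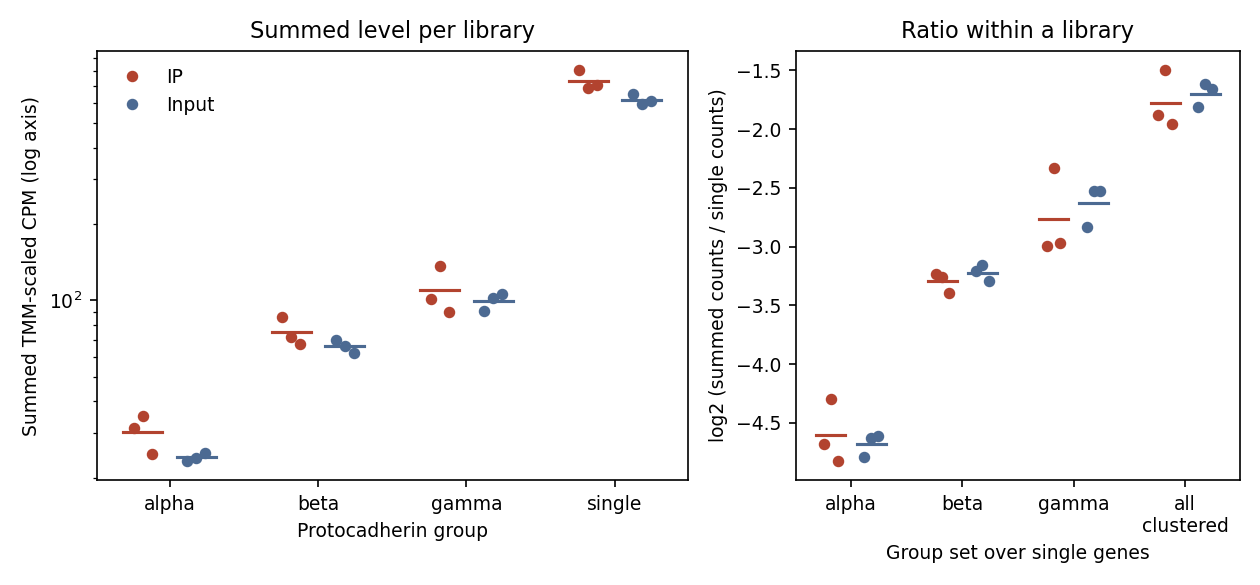
Summed protocadherin levels per library. Left, summed TMM-scaled CPM (log axis) of the alpha, beta, gamma and single genes in 3 IP and 3 Input libraries; right, log2 ratio of each cluster's summed counts to the single genes' within a library. Bars are means; the IP points of the single genes (688 to 806 CPM) lie above the Input points (592 to 647 CPM) under this scaling, while the ratios of the 2 groups overlap.

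The strongest difference of the family was in Pcdh20, a single protocadherin outside the delta subgroups. It had 39.8, 46.1 and 30.1 CPM in IP replicates 1 to 3 and 4.54, 7.39 and 5.34 CPM in Input. The lowest IP library was well above the highest Input library. The log2 fold change was 2.74 (SE 0.23, adjusted p = 2.57e-05), a 6.67-fold rise, and the log2 ratios within the lanes, each of which held 1 IP and 1 Input library, were 3.12, 2.64 and 2.49. Per kilobase of exon shared with no gene on the same strand it held rank 5 among the 12 single genes in IP, at 7.04 ± 1.47 CPM per kb, and rank 10 in Input, at 1.05 ± 0.268 CPM per kb (n = 3 libraries per group, ± SD). Pcdh20 lies on chromosome 14 at 88464743 to 88471396 (minus strand, mm10), and the call held under each alternative tried, with log2 fold changes of 2.50 to 2.97.

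Pcdh8, a delta-2 gene also known as arcadlin whose transcription is driven by synaptic activity, was also higher in IP, at a lower level. It had 7.84, 9.24 and 5.25 CPM in IP and 2.94, 3.41 and 3.33 CPM in Input. The groups did not overlap, and IP replicate 3 was nearest to the Input. The log2 fold change was 1.20 (SE 0.30, adjusted p = 0.00911), and the call was lost without replicate number 1 (adjusted p = 0.0546) or 2 (0.0760). Pcdh8 shares chromosome 14 with Pcdh20, at 79766772 to 79771312 on the minus strand.

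Promoter windows are shown for these 2 rising genes and for Pcdh19, the delta-2 gene that fell, to set the start regions of single genes with opposite changes side by side. RefSeq windows (GRCm38.p6, 250 bases before to 50 after the start) matched 9 of the 12 single genes. The genes shown were picked by the direction of their change, and the windows of the other called genes Pcdh15, Pcdh10 and Pcdh7 are not shown. Capitals mark TATAAA or GGGCGG on either strand, each read 5′ to 3′ along the gene's strand; Pcdh20 is chr14:88471347-88471646, Pcdh8 chr14:79771263-79771562 and Pcdh19 chrX:133688944-133689243, all on the minus strand.
Pcdh20: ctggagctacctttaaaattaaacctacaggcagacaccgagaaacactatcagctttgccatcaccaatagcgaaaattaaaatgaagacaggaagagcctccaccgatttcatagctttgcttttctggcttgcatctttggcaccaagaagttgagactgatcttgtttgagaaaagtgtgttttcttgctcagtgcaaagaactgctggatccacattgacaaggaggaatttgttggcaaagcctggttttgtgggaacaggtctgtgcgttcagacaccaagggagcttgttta
Pcdh8: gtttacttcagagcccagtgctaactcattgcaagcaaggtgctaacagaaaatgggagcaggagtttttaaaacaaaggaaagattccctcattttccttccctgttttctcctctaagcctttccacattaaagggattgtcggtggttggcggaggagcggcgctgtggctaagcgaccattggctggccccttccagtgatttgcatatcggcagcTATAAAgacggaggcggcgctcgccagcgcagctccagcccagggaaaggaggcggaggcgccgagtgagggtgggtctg
Pcdh19: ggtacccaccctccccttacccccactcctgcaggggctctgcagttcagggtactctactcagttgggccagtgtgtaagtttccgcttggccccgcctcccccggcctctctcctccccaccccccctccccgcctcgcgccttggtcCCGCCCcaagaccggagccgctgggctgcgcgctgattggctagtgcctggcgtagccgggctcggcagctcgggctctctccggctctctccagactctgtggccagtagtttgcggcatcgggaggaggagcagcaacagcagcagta
The Pcdh8 window held 1 TATAAA, beginning at position -30 from the start, a letter string found in 13.6% of 32851 RefSeq windows of this length. The Pcdh19 window held 1 GGGCGG, found in 35.7% of them, and 18 CG dinucleotides against 14 in Pcdh8, 4 in Pcdh20 and a median of 7.0 over all windows. The Pcdh20 window held neither string. These are letter matches, with no measurement of binding, and a link between them and the direction of change was not tested.

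Pcdh10, a delta-2 protocadherin that binds the WAVE complex and recruits it to cell contacts, had the second highest CPM of the single genes in IP. It had 216, 136 and 149 CPM in IP and 97.2, 85.4 and 97.4 CPM in Input. Every IP library was above every Input library, with IP replicate 1 highest. The log2 fold change was 0.84 (SE 0.16, adjusted p = 0.00278), and the log2 ratios within lanes were 1.15, 0.67 and 0.61. It lies on chromosome 3 at 45378398 to 45434579 (plus strand), and its call held under each alternative tried.

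A pair of delta-1 genes rose less. Pcdh11x, an X-linked protocadherin, had 56.9, 32.6 and 36.6 CPM in IP and 28.6, 20.5 and 26.9 CPM in Input, for a log2 fold change of 0.73 with SE 0.22 and an adjusted p of 0.0218. Pcdh7, whose cytoplasmic tail binds protein phosphatase 1, had 105, 88.7 and 88.7 CPM in IP and 75.1, 63.6 and 61.6 CPM in Input (0.50, SE 0.12, adjusted p = 0.00657). Neither overlapped between the groups, and Pcdh7 had nearly the same log2 ratio in each lane, 0.48, 0.48 and 0.53. Pcdh11x lost its call without Input replicate 2 (adjusted p = 0.0862) or replicate number 3 (0.0714), and Pcdh7 without replicate number 3 (0.0595). Both also lost it under upper-quartile scaling (0.0691 for Pcdh11x, 0.0532 for Pcdh7) and library totals (0.0796 and 0.0745), which shift the median of all genes by -0.18 and -0.24 relative to TMM.

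Pcdh9, Pcdh1, Pcdh17 and Pcdh18 did not pass the test. Pcdh9, a delta-1 gene with the highest CPM of the family, had 216, 213 and 231 CPM in IP and 218, 210.4 and 208 CPM in Input. Its log2 fold change of 0.05 had a 95% interval of -0.12 to 0.22, so that a change of the size seen in Pcdh7 lay outside it. Per kilobase Pcdh9 stood at 32.4 ± 1.47 CPM in IP and 31.3 ± 0.767 CPM in Input (n = 3 libraries per group, ± SD), well above the next single gene in each group, at 10.5 ± 2.72 CPM for Pcdh10 in IP and 6.82 ± 0.273 CPM for Pcdh1 in Input. Pcdh7 followed in IP at 8.87 ± 0.882 CPM per kb and Pcdh1 at 7.36 ± 1.71 CPM per kb, and Pcdh10, Pcdh7 and Pcdh1 each differed from the next by less than the larger SD of the pair. This order depended on the exons counted: over bases shared with no gene on either strand, Pcdh7 stood next to Pcdh9 in both groups, at 11.2 ± 1.12 CPM per kb in IP and 7.98 ± 0.874 CPM per kb in Input, and Pcdh10 at 10.6 ± 2.75 CPM per kb in IP lay above Pcdh1 by more than that SD.

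Pcdh1, a delta-1 gene known from epithelia as well as brain, had 48.3, 68.2 and 77.8 CPM in IP and 57.3, 61.8 and 61.0 CPM in Input (log2 fold change 0.11, 95% interval -0.26 to 0.47). Its IP replicate 1 lay below and the others above all Input libraries, and without that replicate it was called higher (0.29, adjusted p = 0.0347). Pcdh17, a delta-2 gene that takes part in presynaptic assembly in corticobasal circuits, had 71.4, 48.3 and 53.4 CPM in IP and 72.3, 59.9 and 65.2 CPM in Input (-0.19, 95% interval -0.54 to 0.16). It was called lower without IP replicate 1 (-0.37, adjusted p = 0.0230) and under library totals (-0.43, adjusted p = 0.0276). Pcdh18, a delta-2 gene, had 10.5, 17.5 and 7.46 CPM in IP and 7.71, 8.78 and 9.03 CPM in Input (0.47, 95% interval -0.20 to 1.15), and was called higher without IP replicate 3 (0.72, adjusted p = 0.0454). Pcdh1 and Pcdh18 had IP libraries both above and below all Input libraries, while no IP library of Pcdh17 lay above the Input range.

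**Figure D2:**
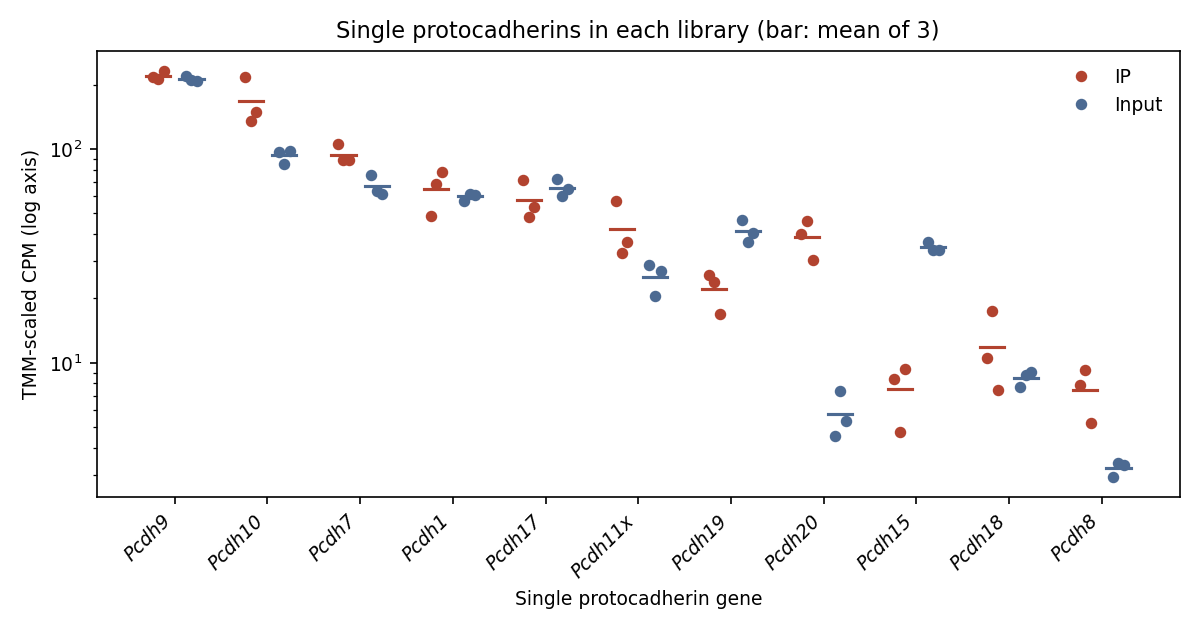
Level of each single protocadherin that passed the filter, in TMM-scaled CPM (log axis), in 3 IP and 3 Input libraries, ordered by mean level; bars are means. Pcdh20, Pcdh8, Pcdh10, Pcdh11x and Pcdh7 have all IP points above all Input points, Pcdh15 and Pcdh19 have them below, and Pcdh9 lies at 208 to 231 CPM in both groups.

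Pcdh15 and Pcdh19 fell. Pcdh15, best known as part of the tip link of hair cells in the inner ear, had 8.401, 4.73 and 9.39 CPM in IP and 36.6, 33.9 and 33.8 CPM in Input. The Input libraries were close together and all far above the IP libraries. The log2 fold change was -2.21 (SE 0.24, adjusted p = 9.71e-05), that is 4.63-fold lower in IP, and the log2 ratios within lanes were -2.12, -2.83 and -1.84. In the brain Pcdh15 is also a known transcript of oligodendrocyte precursors. All 8 markers listed for these cells were called lower as well, against 24.3% of all genes tested, with a median of -3.13. Such a fall was not particular to the precursors. The medians were also -3.13 for astrocytes, -3.55 for oligodendrocytes, -3.01 for GABAergic neurons and -3.06 for microglia. The part of any of these cells in the decrease of Pcdh15 was not tested.

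Pcdh19, an X-linked delta-2 gene whose human variants cause an epilepsy of girls, had 25.7, 23.9 and 16.9 CPM in IP and 46.6, 36.6 and 40.2 CPM in Input. The groups did not overlap. The log2 fold change was -0.89 (SE 0.18, adjusted p = 0.00303), and the log2 ratios within lanes were -0.86, -0.61 and -1.25. Pcdh10 and Pcdh19, both delta-2 genes, thus moved in opposite directions: the log2 ratio of Pcdh10 to Pcdh19 counts was 2.91 ± 0.346 in IP and 1.19 ± 0.111 in Input (n = 3 libraries per group, ± SD), with no overlap. Pcdh19 and Pcdh11x are on the X chromosome, and Xist, the RNA of the inactive X, had 87, 34 and 0 counts in IP replicates 1 to 3 and 165, 311 and 0 counts in Input. In lane 6, where Xist was at 0 in both libraries, the log2 ratio was -1.25 for Pcdh19 and 0.44 for Pcdh11x. These values come from 1 IP and 1 Input library, and any part of the inactive X in the differences of these genes was not tested. The decreases of Pcdh15 and Pcdh19 kept their calls under each alternative tried. Pcdh12, an endothelial protocadherin, was not testable at 0, 0 and 1 count in IP and 0, 1 and 3 counts in Input. The 8 endothelial markers summed to 0.632 to 2.46 CPM in IP and 12.3 to 15.1 CPM in Input, with Cldn5 and Cdh5 at 0 counts in each IP library.

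Of the 11 single genes tested, 7 (63.6%) had no overlap between IP and Input, near the 61.6% of all genes tested. For the 53 clustered genes tested the count was 10 (18.9%), of which 6 had all IP libraries above (27.9% of all genes) and 4 all below (33.7%). Of all genes tested, 47.5% were called in either direction, against 7 of 11 single and 3 of 53 clustered genes.

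Clustered genes had low counts. Their mean counts per library had a median of 109 in IP and 95 in Input, against 1966 and 1731 for the single genes and 535 and 540.0 for all genes tested. The standard error of the log2 fold change had a median of 0.55 for clustered genes, 0.18 for single genes and 0.23 for all genes. Genes of like counts give a closer background. In a band of 50 to 200 mean counts, chosen after the data were seen, 35.2% of 2676 genes were called, at a median standard error of 0.57. Of the 33 clustered genes in that band edgeR called 0, at a median standard error of 0.56, with 1 below an unadjusted p of 0.05, 1 called by DESeq2 and 1 by limma-voom. Of all 2676 genes in the band, 1143 were below that p, and DESeq2 called 1155 and limma-voom 1278. The median absolute log2 fold change in the band was 0.45 for the clustered genes and 1.08 for all genes. The band's genes as a whole leaned to lower values in IP, with a median of -0.85 against -0.06 for its clustered genes.

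**Figure D3:**
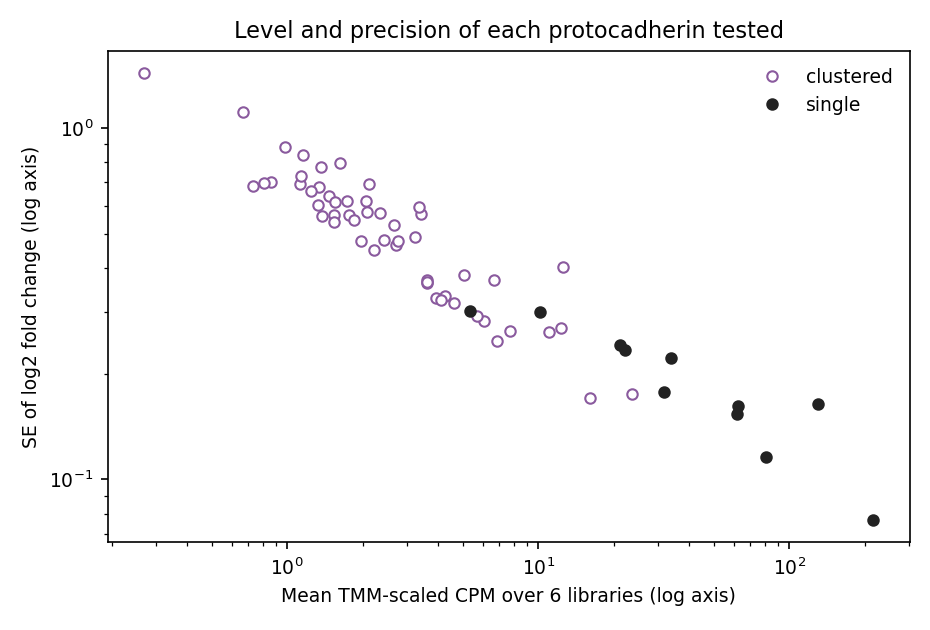
Standard error of the log2 fold change of each tested protocadherin against its mean TMM-scaled CPM over 6 libraries (both axes log). Open points are 53 clustered and filled points 11 single genes; the error falls as the level rises, with medians of 0.55 and 0.18, and most clustered genes have larger errors than the single ones.

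Reads in the constant exons cannot be given to 1 gene. In the GENCODE annotation of mm10, all 14 matched alpha genes share between 2860 and 6267 exonic bases with other genes on either strand. All 22 gamma genes share between 2116 and 4732, while 2 of 21 beta genes share any. The upper ends include genes on the opposite strand. On their own strand, 4606 of 7535 bases of Pcdha11, 2613 of 4732 of Pcdhga10 and all 3034 of the beta gene Pcdhb12 are unshared. For Pcdha4 only 494 of 5768 are, also on its own strand. Reads of those shared bases may stand among those overlapping several features, which made up 1.48 ± 0.140% of all lines in IP and 5.89 ± 0.622% in Input (n = 3 libraries per group, ± SD). Near-identical stretches among the variable exons add uncertainty, since reads that aligned to several places were set aside. These made up 45.9 ± 3.40% of all lines in IP and 33.3 ± 0.687% in Input, and their share at the protocadherins was not measured. The names Pcdha4, Pcdha6, Pcdha6-g and Pcdha7 had 0 counts in all 6 libraries. Pcdha6-g and Pcdha7-g are RefSeq names for long transcripts that begin at or near the start of Pcdha6 and Pcdha7 and run to the end of the gamma cluster, and zero counts for these names do not show that the exons were unused.

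In the alpha cluster (chromosome 18, 36930285 to 37188897), 11 of 16 names were tested and the C type Pcdhac2 was the 1 called. Pcdhac2, needed in mice for the even spread of serotonergic axons, had 18.3, 21.5 and 17.0 CPM in IP and 13.04, 12.2 and 14.9 CPM in Input, with no overlap. Its log2 fold change was 0.50 (SE 0.17, adjusted p = 0.0370). The call was lost under most alternatives, among them library totals (adjusted p = 0.269), a replicate block (0.0654), the removal of IP replicate 2 (0.0748) and the removal of any 1 Input library (0.0624 to 0.140). Pcdhac2 supplied 62.5 ± 5.05% of alpha counts in IP and 55.5 ± 4.203% in Input (n = 3 libraries per group, ± SD). The other C type, Pcdhac1, had 0.380, 0.763 and 0.659 CPM in IP and 1.14, 1.501 and 0.746 CPM in Input, which overlapped (-0.91, 95% interval -2.49 to 0.67).

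The remaining alpha genes were rare, with median levels over the 11 tested of 1.08 CPM in IP and 1.17 CPM in Input. Pcdha1, at the start of the cluster, had the highest log2 fold change of any clustered gene, 2.11, but with a standard error of 1.11 and an adjusted p of 0.146. Its levels were 2.14, 0.414 and 0.682 CPM in IP and 0.352, 0.0192 and 0.383 CPM in Input, so that IP replicate 1 stood apart. The estimate was 1.15 to 2.88 when 1 library or replicate number was left out.

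In the beta cluster (37264998 to 37521419), 20 of 21 genes were tested and Pcdhb13 was the 1 called. It had 7.62, 8.78 and 9.13 CPM in IP and 3.84, 4.504 and 2.60 CPM in Input. The IP libraries were close together and all above the Input, and the log2 fold change was 1.22 (SE 0.28, adjusted p = 0.00614), lost without replicate number 3 (adjusted p = 0.0589). Its neighbours Pcdhb12 (log2 fold change 0.61, SE 0.60) and Pcdhb14 (0.44, SE 0.38) did not pass. Pcdhb16, the beta gene of highest mean CPM, had 18.7, 9.81 and 10.5 CPM in IP and 13.5, 11.4 and 10.3 CPM in Input (0.15, 95% interval -0.45 to 0.76), with IP replicate 1 alone above the Input. The lowest estimate was that of Pcdhb5, with 0.40004, 0.392 and 0.329 CPM in IP and 1.45, 1.41 and 0.880 CPM in Input (-1.72, SE 0.70, adjusted p = 0.0684).

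In the gamma cluster (37661775 to 37841873) all 22 genes were tested, and Pcdhgc4 was the 1 called. The C type Pcdhgc4, which in mice is needed for the survival of many interneurons, had 12.3, 20.7 and 11.9 CPM in IP and 7.24, 5.95 and 8.13 CPM in Input. All IP libraries lay above the Input, with IP replicate 2 highest, and the log2 fold change was 1.08 (SE 0.26, adjusted p = 0.00803). The call was lost without replicate number 2 (0.66, adjusted p = 0.0737). Its neighbour Pcdhgc5, a C type that can bind GABA-A receptors, had 20.2, 21.9 and 6.37 CPM in IP and 9.91, 10.2 and 6.96 CPM in Input. It was not called (0.84, SE 0.40, adjusted p = 0.114) and IP replicate 3 was low; without that library it was called higher (1.24, adjusted p = 0.00273).

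Pcdhgc3, the clustered gene of highest mean CPM over the 6 libraries and a regulator of dendrite branching in the mouse cortex, leaned the other way. It had 16.6, 22.6 and 20.4 CPM in IP and 22.8, 27.4 and 31.6 CPM in Input, all IP values below all Input values. Its log2 fold change was -0.46 (SE 0.18, adjusted p = 0.0555). DESeq2 (adjusted p = 0.0199) and limma-voom (0.0301) called it lower, as did upper-quartile scaling (0.0139) and library totals (0.0182). Within the gamma counts, Pcdhgc3 supplied 18.5 ± 3.53% in IP and 27.2 ± 2.31% in Input, and Pcdhgc4 13.5 ± 1.51% and 7.15 ± 1.18% (n = 3 libraries per group, ± SD). The log2 ratio of Pcdhgc4 to Pcdhgc3 counts was -0.43, -0.12 and -0.77 in IP and -1.66, -2.20 and -1.96 in Input. This ratio, singled out after its values were seen, had no overlap between the groups and needs no scaling between libraries.

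**Figure D4:**
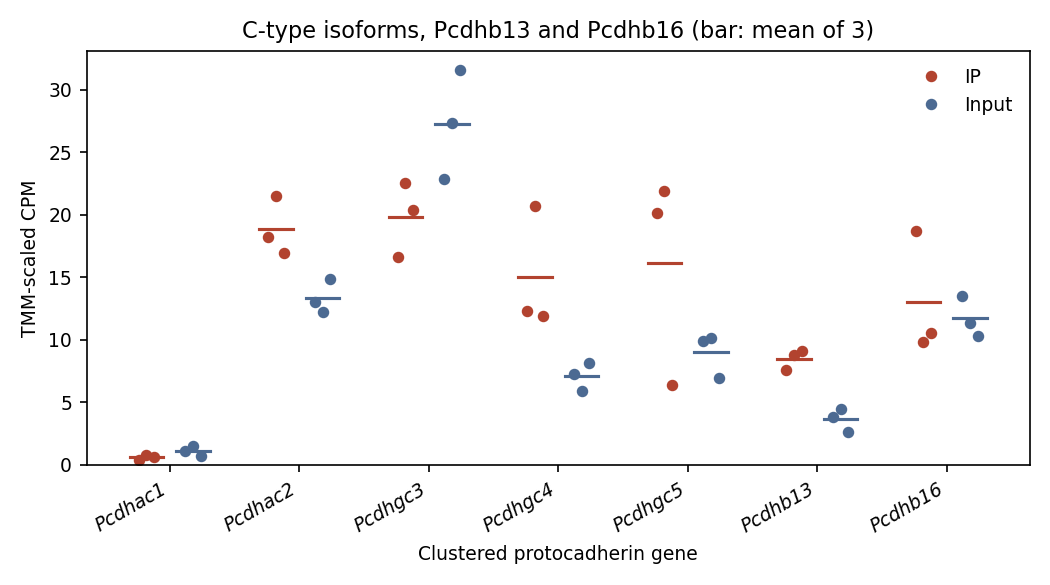
Levels of the 5 C-type isoforms, of Pcdhb13 and of Pcdhb16 in TMM-scaled CPM in 3 IP and 3 Input libraries; bars are means. Pcdhac2, Pcdhgc4 and Pcdhb13 have all IP points above all Input points, Pcdhgc3 has them below, and Pcdhgc5 overlaps through 1 low IP library at 6.37 CPM.

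None of the 19 A and B types of the gamma cluster were called by edgeR, 1 of them at an unadjusted p under 0.05. Their median log2 fold change was -0.21, and 8 were positive and 11 negative. Pcdhga1, the first gene of the cluster, had the lowest value, with 1.0001, 0.327 and 0.447 CPM in IP and 1.53, 2.16 and 2.03 CPM in Input (-1.68, SE 0.66, adjusted p = 0.0618). Over all clustered genes 6 had an unadjusted p under 0.05: the 3 called, and on the lower side Pcdhb5, Pcdhga1 and Pcdhgc3. DESeq2 and limma-voom called these 3 lower.

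**Figure D5:**
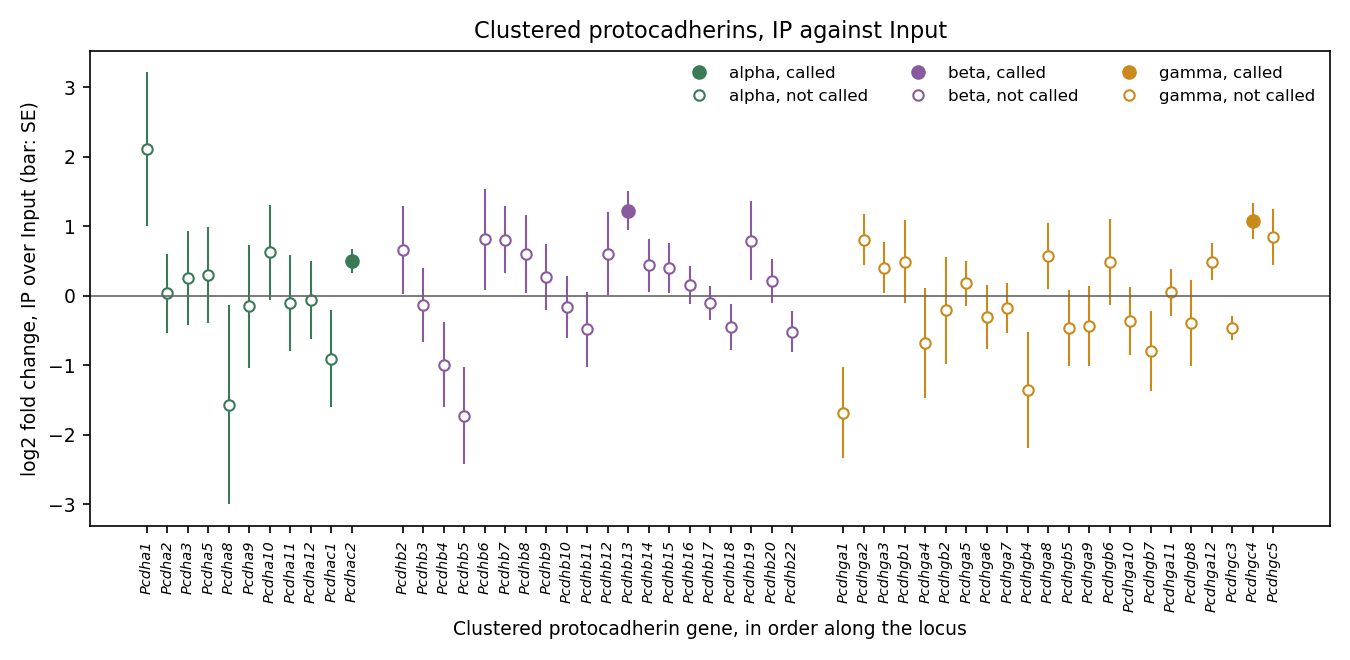
Log2 fold change (IP over Input) of the 53 clustered protocadherins tested, in order along the alpha, beta and gamma clusters; vertical bars are standard errors and filled points are called. Filled points are Pcdhac2 (0.50), Pcdhb13 (1.22) and Pcdhgc4 (1.08), and the other 50 lie on both sides of 0.

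Along the locus, log2 fold changes showed little order. Spearman's rho with position was -0.28 over 11 alpha, -0.05 over 20 beta and 0.15 over 22 gamma genes, as a description of genes that share the same libraries. In the gamma cluster, genes of higher CPM tended to have higher fold changes (rho 0.64 with mean CPM over all 6 libraries, 22 genes). The same rho was 0.24 over 11 alpha and 0.00 over 20 beta genes. That mean includes the IP libraries, so a gene higher in IP gains on both measures and a positive rho is partly built in. The SD of log2 CPM between replicates had a median of 0.52 in IP and 0.37 in Input for clustered genes, and 0.32 and 0.15 for all genes tested. Among clustered genes 62.3% were more variable in IP than in Input, against 81.6% of all genes, so the wider scatter of IP libraries was not limited to protocadherins. Nearly as many clustered names were detected in each group, 53 to 54 per IP library and 54 to 55 per Input library.

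Lists of other cadherins and of protocadherin partners had calls in both directions, as did all genes, of which 23.3% rose and 24.3% fell. Of 19 classical and other cadherins tested 6 rose and 6 fell. Cdh15, first known from muscle, rose most at 9.33 ± 2.36 CPM in IP and 2.03 ± 0.542 CPM in Input (2.21 on the log2 scale, SE 0.33). Of the members with at least 5 mean CPM, Cdh12 fell most, at 9.28 ± 4.57 and 32.2 ± 4.39 CPM (-1.80, SE 0.31). Of 11 Fat, Dachsous, Celsr and calsyntenin genes 3 rose and 4 fell, with the synaptic calsyntenin Clstn3 at 92.7 ± 12.8 CPM in IP and 55.6 ± 6.52 CPM in Input and the giant cadherin Fat1 at 14.2 ± 2.96 and 61.9 ± 2.44 CPM (-2.13, SE 0.16, adjusted p = 1.36e-05). Among 8 catenins and adaptors 4 rose and 2 fell, led by the armadillo-repeat gene Pkp4 (854 ± 109.9 CPM in IP, 356 ± 20.0 CPM in Input) and by Jup, plakoglobin (21.2 ± 1.75 and 41.3 ± 2.25 CPM). These errors are SDs of 3 libraries each.

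Genes of the WAVE complex, the actin regulator that delta-2 protocadherins bind, were mostly higher in IP: 7 of 9 rose and 2 fell, against 23.3% and 24.3% of all genes, with a median log2 fold change of 0.45. The 8 general neuron markers moved with them, with 7 called higher and a median of 0.98, and their part in this was not tested. The subunit Brk1 stood at 162 ± 17.5 CPM in IP and 92.1 ± 3.18 CPM in Input (n = 3 libraries per group, ± SD; log2 fold change 0.82, adjusted p = 1.81e-04). Nckap1, the subunit that binds Pcdh10, stood at 969 ± 119 and 635 ± 9.69 CPM (log2 fold change 0.61, adjusted p = 7.30e-04), while Wasf2 fell (-1.04, adjusted p = 0.00267). Of 17 regulators of the clustered loci 4 rose and 2 fell, near a median of 0.03. The silencing cofactor Trim28 rose (0.96, SE 0.19), and the cohesin subunit Smc3 fell (-0.43, SE 0.09, lost without replicate number 3 at adjusted p = 0.0612). Cohesin subunits did not move together: Smc1a rose (0.60, SE 0.09), and Rad21, Stag1 and Stag2 were not called. Ctcf did not pass at 104 ± 17.1 CPM in IP and 94.4 ± 6.41 CPM in Input. Of 14 signalling and processing genes 4 rose and 3 fell, among them Pdcd10 (1.38, SE 0.20) and the receptor kinase Ret (-1.88, SE 0.27). Nckap1, Ctcf, Smc1a, Rad21, Stag1 and Stag2 were named after their values were seen.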

How the data were processed

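Gene counts were deposited by the authors, 1 table per library. STAR 2.0.0e, HTSeq and the build mm10 are named in the submitters' processing notes; the HTSeq version, strand setting and annotation are not given in the sources used here. The closing lines for unassigned reads were left out of library sizes. Genes passing edgeR's filterByExpr (minimum count 10) were fitted with edgeR 4.0.16, using TMM scaling and the robust quasi-likelihood F-test of IP against Input over all 6 libraries, with Benjamini-Hochberg adjustment over all 16898 genes and a threshold of 0.05. The fit was tested on simulated data with the same spread in both groups and few changed genes. That setting lacked the wider spread of the IP libraries and the many changed genes seen here, so it says little on these calls. DESeq2, limma-voom, other scalings and filters, a replicate block and leaving out libraries were alternatives. CPM per kb divides by exonic bases shared with no other gene on the same strand (GENCODE, mm10); bases unshared on either strand, and sums over library totals, were alternatives added after the data were seen. Positions and promoters are from RefSeq GRCm38.p6; 69 of 71 names matched by symbol and 2 by synonym. Values per library are given for each single gene that passed the filter and, in each cluster, for the called genes, the most abundant gene and the C types; each list gives its called genes of at least 5 mean CPM with the largest and smallest log2 fold change. Pcdha1, Pcdhb5, Pcdhb12, Pcdhb14 and Pcdhga1 were added after their values were seen. Members and lists were chosen with earlier results of these data known. Replicate numbers go with sequencing lanes 1, 5 and 6.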

Additional observations from a re-analysis of the deposited data

How the results depend on the processing

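Pcdh10, Pcdh20, Pcdh15 and Pcdh19 kept their calls under each alternative run. The count of clustered genes called lower, 0 by edgeR with TMM, was 3 under upper-quartile scaling, library totals, DESeq2 and limma-voom, 2 with a stricter filter, and 1 with RLE size factors. The clustered median of 0.05 was -0.13 under upper-quartile scaling and -0.18 under library totals. Single genes called higher numbered 3 under both of these scalings, and their median of 0.47 was 0.29 and 0.24; the 1.19-fold higher summed CPM of single genes was 1.01-fold under library totals, where the ratio of clustered sums, 1.13 with TMM, was 0.959; their median was 0.37 with limma-voom and 0.31 with no filter. All genes split into 2887 higher and 4981 lower under upper-quartile scaling and 2464 and 5236 under library totals. With a replicate block, 1 clustered gene was lower, 2 were higher, and the single median was 0.39. Same-numbered libraries correlated at 0.064, 0.039 and 0.012 in their deviations from the group means, and differently numbered ones at -0.056 to 0.022. Such small values cannot decide whether the numbers mark pairs. Xist was at 0 counts in both libraries of number 3 and above 0 in all others. The main fit left the numbers out. Leaving out libraries gave 2661 to 4355 genes higher and 2928 to 4748 lower, 1 to 4 clustered genes higher and 0 to 4 lower, clustered medians of -0.077 to 0.21, 3 to 6 single genes higher and 2 to 3 lower, single medians of 0.085 to 0.55, and clustered to single differences of -0.22 to 0.01. Uncalled estimates changed sign under upper-quartile scaling for Pcdh1 (-0.069), Pcdh9 (-0.13), Pcdhb16 (-0.021) and Ctcf (-0.032), and under library totals (-0.12, -0.18, -0.10 and -0.10). Pcdh1 also did so without IP replicate 3 (-0.033) or number 3 (-0.02), Pcdh9 with the stricter filter (-0.0028), Pcdhb16 without IP replicate 1 (-0.20) or number 1 (-0.09), and Ctcf without number 1 (-0.038). Over left-out libraries Pcdhb16 reached up to 0.33 and Ctcf up to 0.25. The causes were not tested.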
